A study of Mus musculus with 14 samples.

Results

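Promoter capture Hi-C contacts of 7 genes of the Hedgehog pathway, Shh, Ptch1, Smo, Hhip, Gli1, Gli2 and Gli3, were examined in mouse cranial neural crest cells (CNCCs). Promoter capture Hi-C ligates DNA pieces that are neighbours in the folded genome, keeps the ligation products that hold a promoter fragment (the bait), and here lists fragment pairs with a CHiCAGO score of 5 or more, a score that weighs how far the reads of a pair exceed those that distance and bait alone would give. A gene belonged to the set by name, and its bait was the captured HindIII fragment holding one of its transcription start sites (TSSs) in the GENCODE vM21 annotation of GRCm38. A bait of this kind was found for 6 of the 7 genes, among 22171 baits in all, of which 21626 held a TSS. The exception was Shh, whose only TSS was not in a captured fragment, and which was followed through the adjoining bait described below.

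The data were 14 lists of contacts, 2 biologically independent replicates in each of 7 conditions. The second pharyngeal arch (PA2) and the mandibular (Md), maxillary (Mx) and frontonasal (FNP) processes were taken at E10.5 from Wnt1::Cre;ROSA-RFP embryos, and the developing outer ear (pinna), which PA2 forms, was taken from the same genotype at E12.5 and E14.5. In these embryos Cre driven by the Wnt1 promoter marks neural crest cells, which were sorted by red fluorescence. Per the study's methods, tissue was dissociated with trypsin at E10.5 and E12.5 but with papain at E14.5. Stage and enzyme therefore cannot be told apart at E14.5, nor stage and tissue between pinna and the E10.5 libraries. The seventh condition was PA2 at E10.5 from Hoxa2EGFP/EGFP embryos, in which EGFP replaces Hoxa2 function on both alleles and cells were sorted by green fluorescence, so that genotype and the way of sorting cannot be told apart. All embryos were pooled, of both sexes and a mixed C57Bl/6J;CD1 background. FNP, Mx and Md crest does not express Hox genes, whereas PA2 and pinna crest expresses Hoxa2. The lists hold contacts only, so no marker gene could be read to check the sorted cell type, and they give no read numbers, so sequencing depth is unknown. They held 119370 to 499756 pairs, of which 113670 to 186248 joined fragments of 1 chromosome, fewest in both knockout libraries. Pairs between chromosomes made up 46.5% of the list of Md replicate 1 and 62.7% of that of E12.5 pinna replicate 2, both named as merged, against 2.51% to 5.39% in the other 12. No pair of any of the 7 baits with another chromosome was listed in 2 or more libraries, so only contacts within a chromosome are described. A pair that is not listed counts as 0, which means a score under the listing threshold and not the absence of contact.

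Hedgehog signalling runs from a secreted ligand to a family of transcription factors. Shh binds the receptor Ptch1, which otherwise holds back the membrane protein Smo, and active Smo turns the Gli proteins from repressors into activators of target genes. Ptch1, Hhip and Gli1 are themselves targets of the pathway, so that they serve as its readout in responding cells. In the embryonic face Shh is made by ectoderm and pharyngeal endoderm, and the neural crest beneath them receives it. Shh lies at one end of a large gene desert whose far end holds Rnf32 and Lmbr1, and intron 5 of Lmbr1 contains the ZRS, the limb bud enhancer of Shh.

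The Shh TSS lay at base 28467256 of chromosome 5, on the minus strand, in a HindIII fragment of 348 bp (chr5:28467168-28467515) that was no bait. The neighbouring bait, chr5:28463005-28467167, began 89 bp inside the gene and held 707 of the 796 bases of Shh exon 1. By annotation it carried the TSSs of the antisense transcripts 9530036O11Rik and Gm26894, so its contacts were captured under those names as much as under Shh. The bases that precede the Shh TSS in its own fragment are shown because they mark this boundary, read on the minus strand of GRCm38 (chr5:28467257-28467520) with the HindIII site at the far border in capitals. The other sequences are the HindIII ends, facing the gene, of the first-ranked partners of Shh (chr5:29470680-29470739), Ptch1 (chr13:64032522-64032581) and Gli3 (chr13:14628941-14629000), the first-ranked partners listed in 12 or more libraries, on the plus strand.
Shh upstream: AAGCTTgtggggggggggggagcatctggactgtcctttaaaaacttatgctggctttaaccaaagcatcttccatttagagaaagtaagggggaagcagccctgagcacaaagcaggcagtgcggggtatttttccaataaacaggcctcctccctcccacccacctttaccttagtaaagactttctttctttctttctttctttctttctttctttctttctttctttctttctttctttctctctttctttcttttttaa
Mnx1 bait, partner of Shh: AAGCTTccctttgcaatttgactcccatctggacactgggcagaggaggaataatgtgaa
Distal partner of Ptch1: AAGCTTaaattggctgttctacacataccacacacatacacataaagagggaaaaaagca
Gm25444 bait, partner of Gli3: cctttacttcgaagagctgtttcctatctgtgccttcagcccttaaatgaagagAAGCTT

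The Shh bait had the most listed contacts of the set and the Ptch1 bait came second. The Shh bait was listed with 33 and 41 fragments in FNP, 39 and 34 in Mx, 32 and 43 in Md, 31 and 38 in PA2, 37 and 37 in knockout PA2, 34 and 35 in E12.5 pinna, and 15 and 33 in E14.5 pinna. All libraries but E14.5 pinna replicate 1 therefore lay between 31 and 43. The Ptch1 bait was listed with 17 and 27 fragments in FNP, 20 and 23 in Mx, 15 and 29 in Md, 18 and 42 in PA2, 17 and 10 in the knockout, 17 and 7 in E12.5 pinna, and 15 and 18 in E14.5 pinna. Its replicates differed by up to 24 fragments, in PA2, so that the conditions overlapped.

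**Figure D1:**
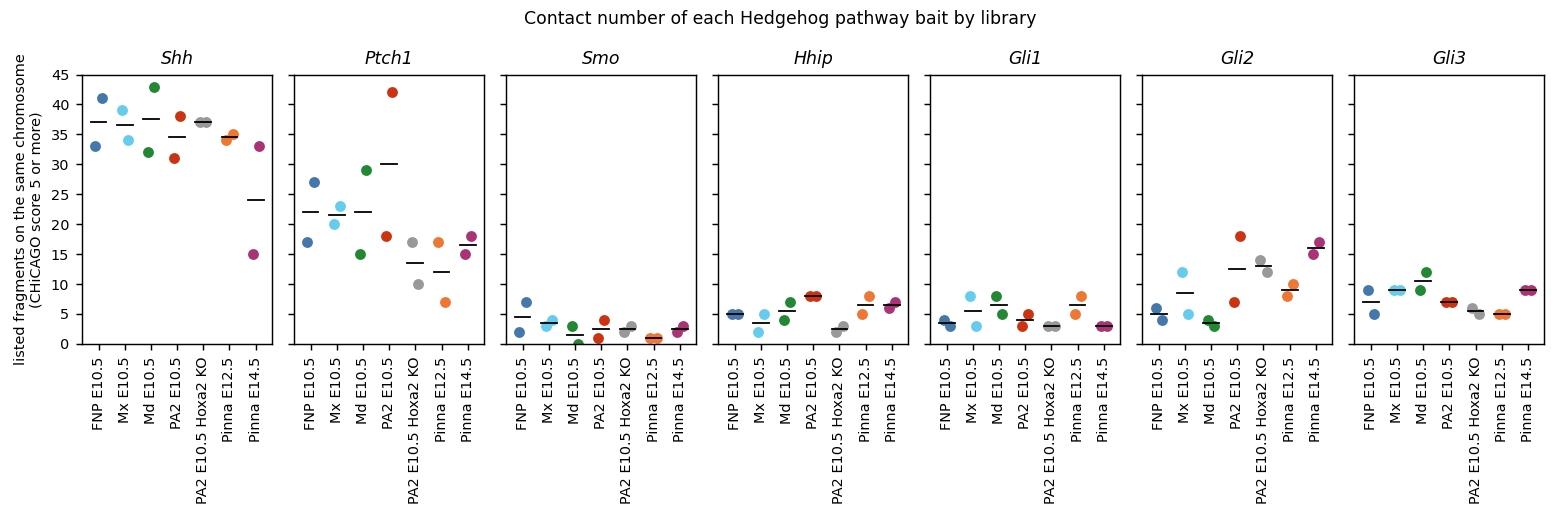
Each panel shows 1 gene, with the number of fragments of the same chromosome listed at a CHiCAGO score of 5 or more on the y axis and the 7 conditions on the x axis. Points are the 2 libraries of a condition and bars their mean. Shh sits at 31 to 43 outside E14.5 pinna replicate 1, Ptch1 between 7 and 42, and the other genes at 18 or below.

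The remaining members had few contacts. Smo, the membrane transducer, was listed with 0 to 7 fragments per library and Gli1, the Gli activator that is itself a pathway target, with 3 to 8. Hhip, a decoy receptor that binds the ligand, had 2 to 8 and Gli3, the main Gli repressor, 5 to 12. Gli2, the main Gli activator, had 6 and 4 in FNP, 12 and 5 in Mx, 4 and 3 in Md, 7 and 18 in PA2, 14 and 12 in the knockout, 8 and 10 in E12.5 pinna, and 15 and 17 in E14.5 pinna. The median TSS bait had 3 to 6 fragments, depending on the library.

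Because libraries differ in length, each bait was also placed by its percentile among all TSS baits of the same library. The median percentile over the 14 libraries was 97.1 for Shh, 89.3 for Ptch1, 71.0 for Gli2, 67.9 for Gli3, 58.1 for Hhip, 48.6 for Gli1 and 33.1 for Smo. Shh exceeded Ptch1 in 12 of 14 libraries, by 9.27 ± 10.52 percentile points (mean ± SD), and exceeded Smo, Hhip, Gli1 and Gli3 in all 14. It exceeded Gli2 in 13. Ptch1 lay above Gli2 in 11 of 14 libraries, Gli2 above Gli3 in only 8, Gli3 above Hhip in 9, Hhip above Gli1 in only 8 and Gli1 above Smo in 10. In each of these steps the SD over libraries exceeded the mean difference, so the order of those neighbours was not separated from the spread. Against the mean of Ptch1, Gli1, Gli2 and Gli3, which transmit the signal in responding cells, the Shh bait was higher in all 14 libraries, by 28.4 ± 7.37 percentile points. No test is attached to this order, since the genes were chosen with earlier results of these data known. A percentile adjusts for the number of pairs a library lists. It does not remove other differences between libraries, or differences in how efficiently each bait was captured. The order is therefore one of baits, and the part of capture in it was not tested.

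**Figure D2:**
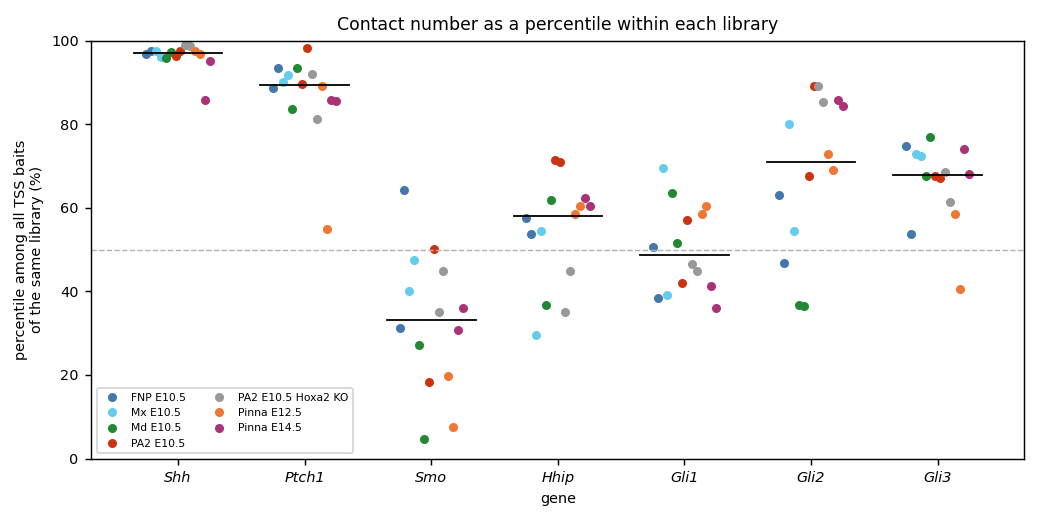
The y axis gives the percentile of each gene's bait, by number of listed fragments, among all TSS baits of the same library, and the x axis the 7 genes. Points are the 14 libraries coloured by condition, bars their median and the dashed line the 50th percentile. Shh lies at 85.8 to 98.9 and Smo at 4.75 to 64.4.

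Recurrence over libraries separated the genes further. Of the 89 fragments ever listed with the Shh bait, 67 were listed in 2 or more libraries and 30 in 7 or more, a number that 2.42% of TSS baits reached. Ptch1 had 88, 50 and 12 such fragments, the last reached by 12.1% of baits. The numbers in 7 or more libraries were 4 for Gli2, 3 for Gli1, 2 for Hhip, 2 for Gli3 and 1 for Smo, against a median of 1 over all TSS baits. The Shh fragments were also distant: the median gap to those in 2 or more libraries was 829.9 kb, and 66 of 67 lay beyond 500 kb, compared with 37.5% of all recurrent pairs. A median gap at least as far was found for 20.2% of the TSS baits that had recurrent fragments. For Gli3 the median gap was 797.8 kb, for Ptch1 401.6 kb, for Hhip 321.0 kb, for Smo 270.9 kb, for Gli2 220.5 kb and for Gli1 202.9 kb. For Shh 66 of 67 and for Ptch1 50 of 50 recurrent fragments lay on the upstream side of the gene. All recurrent fragments were on 1 side for 29.9% of the 5862 baits that had 20 or more.

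Most contacts of the Shh bait fell into 3 blocks, in the gene desert from 553 kb away, across Rnf32 and Lmbr1, and around Mnx1, a homeobox gene of motor neurons and pancreas, about 1 Mb away. In Lmbr1, the fragment chr5:29270998-29275858, 804 kb from the bait, scored 11.7 and 16.8 in FNP, 16.3 and 13.0 in Mx, 13.5 and 20.6 in Md, 16.8 and 19.7 in PA2, 9.18 and 0 in the knockout, 12.9 and 10.9 in E12.5 pinna, and 5.20 and 15.1 in E14.5 pinna. It was thus listed in 13 of 14 libraries. The bait of Gm23801, a small gene inside Lmbr1 intron 4 and 865 kb from Shh, was the only partner of any of the 7 genes listed in all 14 libraries, at 5.19 to 12.8. Rnf32 was reached through its own bait in 9 libraries.

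The intron that holds the ZRS was in contact with the Shh bait in every library. Intron 5 of Lmbr1 (chr5:29292950-29323801) overlapped 16 HindIII fragments, of which 4 to 13 were listed per library. The mean score over the 16 was 3.63 and 7.06 in FNP, 3.15 and 6.25 in Mx, 5.35 and 7.43 in Md, 4.13 and 6.11 in PA2, 6.69 and 4.79 in the knockout, 6.65 and 6.41 in E12.5 pinna, and 1.61 and 6.09 in E14.5 pinna. Replicates of 1 condition differed as much as conditions did. In the comparisons that follow each library counts as 1 unit, although every condition gave 2, so n is a number of libraries and not of conditions. Hoxa2-expressing libraries had a mean of 5.17 ± 1.96 (SD, n = 6) against 5.48 ± 1.78 (n = 6) for Hox-negative ones, a difference of -0.31 (two-sided exact permutation test, p = 0.775). In pinna it was 5.19 ± 2.40 (n = 4) and in the E10.5 wild-type libraries 5.39 ± 1.60 (n = 8), a difference of -0.20 (two-sided exact permutation test, p = 0.869). Over the whole domain from the Shh TSS to the far end of Lmbr1, 26.3 ± 6.53 fragments were listed in Hoxa2-expressing and 28.3 ± 3.20 in Hox-negative libraries (exact permutation p = 0.636), and 26.0 ± 8.04 in pinna against 28.0 ± 3.21 at E10.5 (exact permutation p = 0.618). The signs of these 4 differences turned without E14.5 pinna replicate 1, to 0.40 and 1.00 for the intron and to 0.47 and 2.00 for the domain. The 2 intron differences also turned without FNP replicate 2, to 0.01 and 0.04, or without Md replicate 2, to 0.08 and 0.10.

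**Figure D3:**
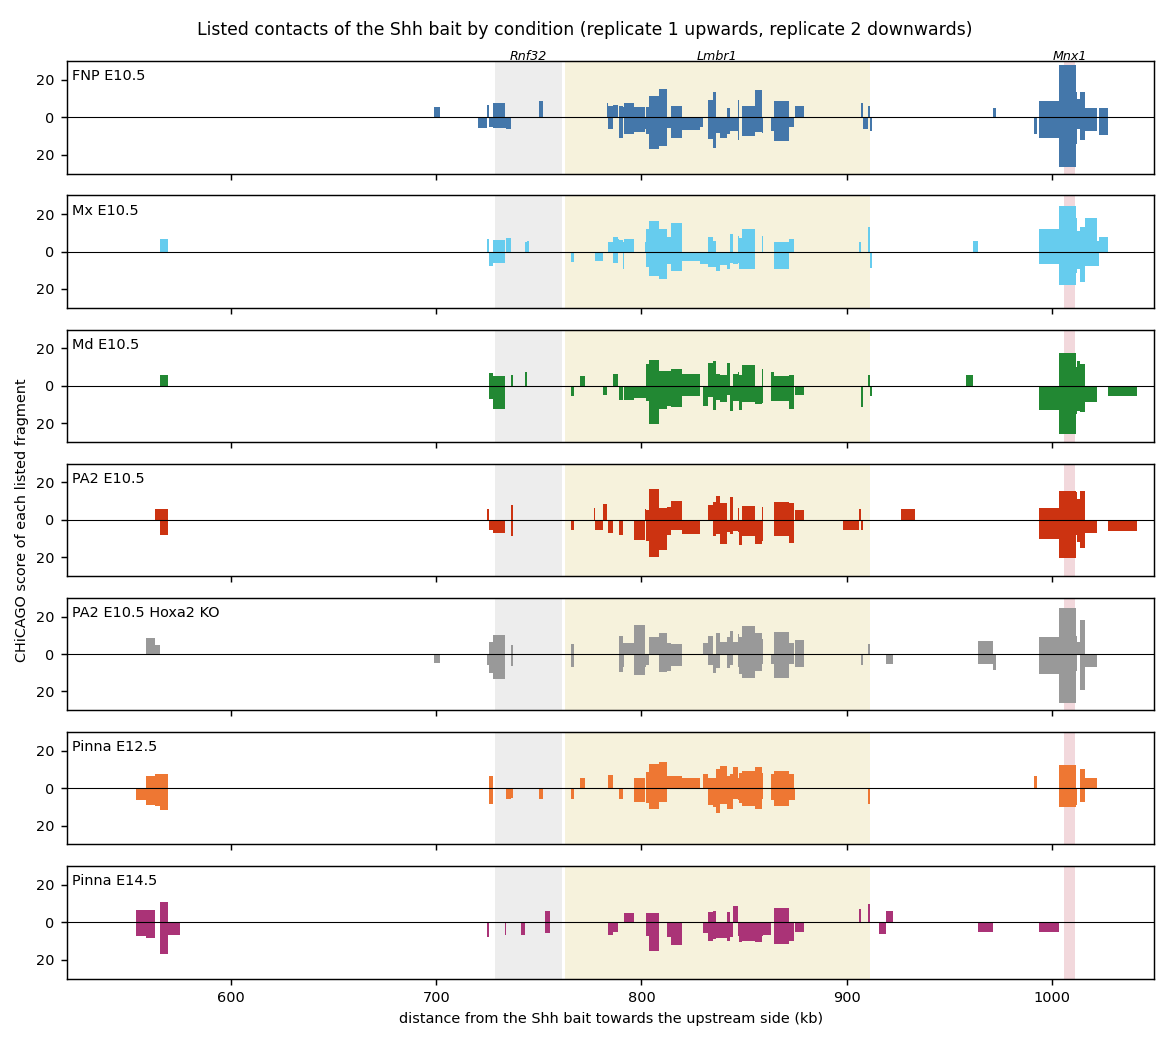
Each row is 1 condition, with the distance from the Shh bait on the upstream side in kb on the x axis and the CHiCAGO score on the y axis, replicate 1 drawn upwards and replicate 2 downwards. Bars span the listed fragments, and shading marks the genes Rnf32, Lmbr1 and Mnx1. The Lmbr1 block is filled in every condition, whereas the bars at Mnx1 reach 27.8 at E10.5, 12.3 at E12.5 and are missing there at E14.5.

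The Mnx1 bait (chr5:29470681-29478820), 1004 kb from the Shh bait, was its highest-scoring partner, at 27.8 and 26.6 in FNP, 24.3 and 17.8 in Mx, 17.3 and 25.6 in Md, 15.5 and 20.1 in PA2, 24.4 and 26.2 in the knockout, 12.3 and 10.3 in E12.5 pinna, and 0 and 0 in E14.5 pinna. Every E10.5 library lay above every pinna library. Among 42654 pairs of 2 baits that were at least 1000 kb apart and listed at least once, 98 had a mean score at or above the 17.7 of this pair, itself included. The bait of Gm24538, 1014 kb away, followed the same course, with 11.4 to 19.4 over the E10.5 libraries, knockout included, then 10.1 and 7.18 in E12.5 pinna and 0 in both E14.5 libraries.

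Of the 4 fragments from the Mnx1 bait to the Gm24538 bait, all 4 were listed in each wild-type E10.5 library, 2 and 3 in E12.5 pinna and 0 in both E14.5 libraries. E14.5 pinna replicate 2 still listed 33 other fragments with the Shh bait, in the range of the E10.5 libraries, and replicate 1 listed 15. The Mnx1 bait itself was listed with 44 to 59 fragments in wild-type E10.5 libraries, 38 and 36 in the knockout, 25 and 36 in E12.5 pinna, and 10 and 16 in E14.5 pinna. The Gm24538 bait was listed with 47 to 59, 41 and 38, 36 and 38, and 6 and 8 in the same order. Both partner baits thus had fewer contacts in general at E14.5, and the part of this in the Shh values was not tested. The E14.5 libraries were also those dissociated with papain, and the part of that was not tested either.

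**Figure D4:**
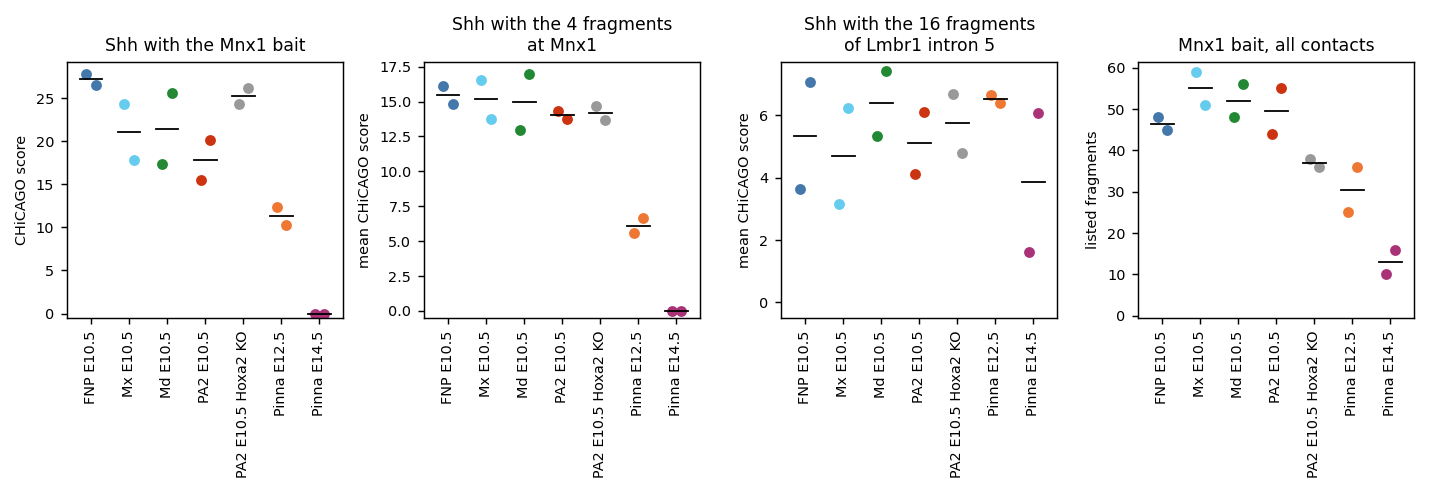
Panels show, per library, the score of the Shh bait with the Mnx1 bait, its mean score over the 4 fragments at Mnx1, its mean score over the 16 fragments of Lmbr1 intron 5, and the number of fragments listed with the Mnx1 bait. The x axis gives the 7 conditions, points the 2 libraries of each and bars their mean. Both Mnx1 scores fall to 0 at E14.5, and the intron 5 score there is 1.61 in replicate 1, the lowest of all 14, and 6.09 in replicate 2.

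Pair by pair, pinna was compared with the 8 E10.5 wild-type libraries by limma on asinh-transformed scores over all 286137 pairs listed in at least 2 wild-type libraries, of which 0.96% passed an adjusted p of 0.05. Of 63 Shh pairs, 1 was higher and 3 were lower in pinna, where 0.367% and 0.593% of all pairs were. That balance over all pairs was not stable, with 1727 higher and 1139 lower on raw scores and 3476 higher and 23 lower within the PA2 lineage. The lower pairs were the Mnx1 bait (asinh difference -2.20, SE 0.481, adjusted p = 0.0287) and the 2 fragments beside it, 1012 kb away (chr5:29478821-29479646 and chr5:29479647-29480907). The first of these scored 8.17 to 17.8 over E10.5 libraries, 0 and 9.04 in E12.5 pinna and 0 in both E14.5 libraries (difference -2.52, SE 0.465, adjusted p = 0.0111), and the second 6.45 to 13.5 in wild-type E10.5 libraries and 0 in all 4 pinna libraries (difference -3.05, SE 0.371, adjusted p = 0.000886). The second pair entered the fit only through the E10.5 libraries, where it is high, so it had to differ and its p adds nothing to its values. The first was listed in pinna only by E12.5 replicate 2, so it too needed the E10.5 libraries to enter. Its p likewise adds nothing to its values. The groups did not overlap in 4 of the 63 pairs, beside 1.83% of all pairs tested. The 3 differences kept their size within the PA2 lineage, 4 pinna against 2 PA2 libraries, at -2.01, -2.38 and -3.13, but none passed there (adjusted p = 0.575, 0.528 and 0.277). With scores under 10 set to 0 none passed either (adjusted p = 0.0515, 0.129 and 0.201). The Mnx1 bait also missed the threshold without either E14.5 library (adjusted p = 0.127 without replicate 1 and 0.116 without replicate 2), and at 0.0501 to 0.0588 without FNP replicate 1, FNP replicate 2, Mx replicate 1, Md replicate 2 or PA2 replicate 2.

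The pair that was higher in pinna joined Shh to a fragment of the gene desert, chr5:29025695-29030029, 559 kb upstream and in no protein-coding gene. It scored 0 in all 8 wild-type E10.5 libraries, 8.36 and 0 in the knockout, and 6.66, 8.84, 6.43 and 8.29 in the E12.5 and then the E14.5 pinna libraries (asinh difference 2.71, SE 0.534, adjusted p = 0.0173). It entered the fit only through the pinna libraries, where it is high, so it had to differ and this p, like that within the PA2 lineage (0.0266), adds nothing to its values. It could not be fitted with scores under 10 set to 0. A neighbour at 565 kb, chr5:29032445-29036632, scored 6.86 and 0 in Mx, 5.58 and 0 in Md, 5.92 and 7.82 in PA2, and 7.55, 11.8, 10.7 and 17.2 over the same pinna libraries, and was not listed in FNP or the knockout. Thus 2 fragments of this desert were listed in all 4 pinna libraries.

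The fragment that does hold the Shh TSS gave a view from the opposite baits. It was listed with the Gm23801 bait inside Lmbr1 in 13 of 14 libraries, at 5.25 to 11.2, and not in E14.5 pinna replicate 2. The Mnx1 bait listed it in 9 libraries, 7 of the 8 wild-type E10.5 libraries (6.03 to 12.51) and both knockout libraries (6.88 and 12.1), and in none of the 4 pinna libraries. The Gm24538 bait also listed it in 9, at 8.30 to 14.49 in 6 wild-type E10.5 libraries, 6.75 and 8.73 in the knockout and 6.45 in E12.5 pinna replicate 1. These values come from other captured fragments but from the same libraries as those of the Shh bait.

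The receptor gene Ptch1 was captured through an upstream fragment, chr13:63569398-63574759, that held 2 of its 10 annotated TSSs, while 5 lay in the nearby fragment chr13:63562885-63568662, which was no bait. Its contacts lay across Ercc6l2, a DNA repair gene, and in the intergenic stretch that follows before Hsd17b3. The first-ranked fragment, chr13:64032523-64034585, was 458 kb away and scored 11.4 and 9.21 in FNP, 11.9 and 13.4 in Mx, 7.18 and 9.33 in Md, 8.63 and 13.1 in PA2, 0 and 10.9 in the knockout, 10.48 and 5.97 in E12.5 pinna, and 7.57 and 10.3 in E14.5 pinna. It was listed in 13 of 14 libraries and the conditions overlapped. The next were chr13:64019528-64020628, at 445 kb and in 12 libraries (up to 11.7), and chr13:64023160-64026069, at 448 kb and in 11 (up to 13.4). The Ercc6l2 bait, 239 kb away, was listed in 11 libraries at 5.97 to 10.2, and in neither knockout library. From the opposite side, the Ercc6l2 bait listed the uncaptured fragment with the 5 TSSs in 11 libraries, at 5.93 to 9.77. Knockout replicate 2 was among them, at 6.72, so the contact was not missing from the knockout in this view.

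**Figure D5:**
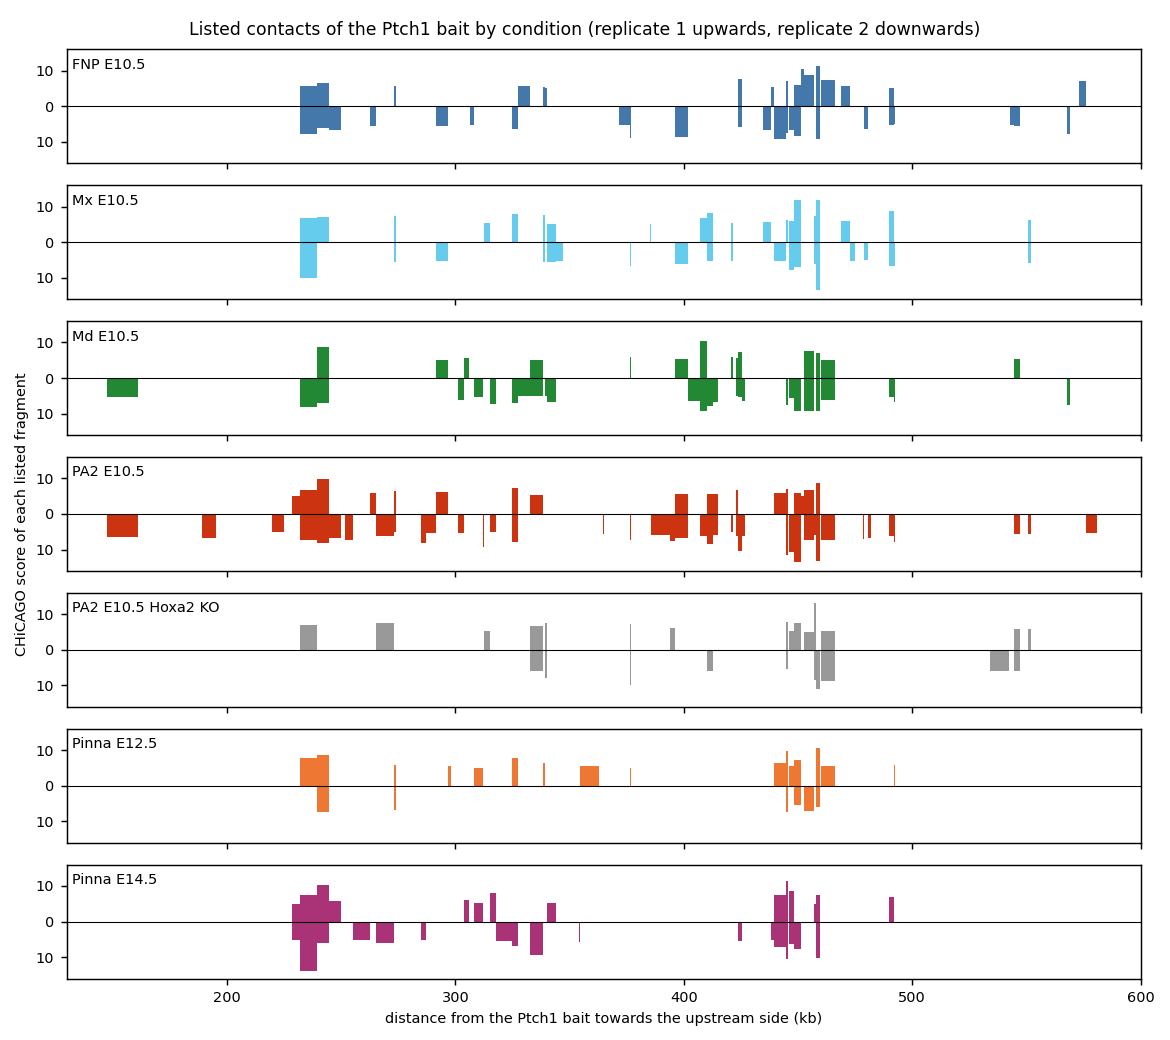
Each row is 1 condition, with the distance from the Ptch1 bait on the upstream side in kb on the x axis and the CHiCAGO score on the y axis, replicate 1 drawn upwards and replicate 2 downwards. Bars span the listed fragments. All conditions have bars at 445 to 458 kb, and all but the knockout at 239 kb, the Ercc6l2 bait. PA2 replicate 2 has the most, 42.

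Smo had 1 partner in 7 or more libraries, the bait of its neighbour Tspan33, 33.6 kb away, which scored 5.32 to 7.33 in FNP, Mx, the knockout and E14.5 pinna replicate 2 and was unlisted in the other 7. All 6 of its recurrent partners were baits, Hilpda at 453 kb (6 libraries) and Flnc at 291 kb (4 libraries) ranking next. The first-ranked fragment of Hhip, chr8:79734400-79736610, lay in Anapc10, a subunit gene of the anaphase-promoting complex, 317.2 kb away, and was listed in 11 libraries at 5.28 to 9.78. The next, chr8:79733807-79734399 beside it, was listed in 7.

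The Gli genes each had their own neighbourhood. Gli1 was listed with chr10:127121196-127125817, 203 kb away near Os9, in 10 libraries at 5.77 to 9.19, with the bait of Stac3, a muscle gene, in 7 and with a fragment in B4galnt1 in 7. Gli3 was listed with the bait of Gm25444, which lies within Psma2 833 kb away, in 13 libraries. Its scores were 0 and 8.89 in FNP, 13.5 and 6.83 in Mx, 10.4 and 7.12 in Md, 13.6 and 7.66 in PA2, 9.66 and 10.3 in the knockout, 5.08 and 6.31 in E12.5 pinna, and 6.06 and 5.36 in E14.5 pinna. The 4 pinna libraries were at or below 6.31 and all other libraries that listed the pair at or above 6.83, but FNP replicate 1 did not list it, so the groups overlapped. The bait shared by Mrpl32 and Psma2, 849 kb away, was listed in 7 libraries, none of them pinna. The third, chr13:14683476-14687201 at 775 kb, was listed in 6 libraries at 5.41 to 11.2.

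The first-ranked partner of Gli2 was the Tmem185b bait, 460 kb upstream, at 0 and 5.91 in FNP, 0 and 6.68 in Mx, 10.51 and 10.8 in Md, 9.44 and 17.0 in PA2, 0 and 0 in the knockout, 5.72 and 0 in E12.5 pinna, and 0 and 6.84 in E14.5 pinna. It was highest in Md and PA2. Of the 26 recurrent Gli2 fragments, 22 lay on the other side, through the gene body and the stretch beyond its 3' end towards Tfcp2l1. The next-ranked, chr1:118777450-118778002 at 269.0 kb, was listed in both PA2 libraries (8.16 and 5.32), both knockout libraries (6.20 and 5.55), E12.5 pinna replicate 2 (7.44) and both E14.5 libraries (8.27 and 8.63), and in none of the 6 Hox-negative libraries. In the Hoxa2-expressing libraries it therefore overlapped the others only through E12.5 pinna replicate 1, at 0. The third, chr1:118789958-118804682 at 242 kb, was listed in 7 libraries, FNP replicates among them.

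Across the 12 wild-type libraries, no pair of any of the 7 baits passed in the comparison of Hoxa2-expressing (PA2 and pinna) with Hox-negative (FNP, Mx and Md) libraries. There, 0.0203% of 286137 pairs passed (0.00559% higher and 0.0147% lower), 175 pairs of the 7 baits were tested, and 0 of them had groups that did not overlap, where 0.392% of all pairs did. At an unadjusted limma p under 0.05, 18603 of all pairs would have passed. The comparison of FNP with the other wild-type E10.5 processes also returned 0 of 111 pairs of the 7 baits, at 0.2% of 161463 pairs passing (0.0941% higher and 0.106% lower). In that comparison the groups did not overlap in 6 of the 111, beside 5.25% of all pairs. Between pinna and E10.5, none of the tested pairs of the other 6 genes passed. The median asinh difference over tested pairs was -0.32 for Shh, -0.60 for Ptch1 and 0.54 for Gli2, and -0.01 over all pairs.

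In knockout against wild-type PA2, fitted with the 14 libraries and 7 condition means, 2.16% of 161463 pairs listed in at least 4 libraries passed (0.362% higher and 1.8% lower), among them 1 higher and 2 lower of the 111 pairs of the 7 baits, a share of 2.70%. With pairs listed in at least 2 libraries the balance over all pairs turned, to 8312 higher and 4549 lower. Pair scores were not scaled for list length, and the knockout lists were the shortest, with 119370 and 128042 pairs against 144961 and 150056 in PA2. The part of list length in the lower scores of the knockout was not tested. The Ptch1 pair with chr13:63997775-63998438, 423 kb away, scored 6.64 and 6.23 in PA2, 5.65 and 5.01 in Md, and 0 in both knockout libraries (asinh difference -2.56, SE 0.427, adjusted p = 0.0095). Inside the Gli2 gene body, chr1:118892133-118900539 scored 0 in PA2 and 5.51 and 5.76 in the knockout, and 5.66 and 5.20 in E14.5 pinna (difference 2.43, SE 0.418, adjusted p = 0.0111), and the adjacent chr1:118900540-118903368 scored 5.02 and 6.00 in PA2 and 0 in the knockout (difference -2.40, SE 0.419, adjusted p = 0.0117). All listed scores lay just above the threshold for listing, and none of the 3 pairs could be fitted with scores under 10 set to 0. The Gli2 gain and the Ptch1 loss counted listings in the group where they were high towards the 4 libraries needed. Their p values thus add nothing to the values themselves. The Gli2 gain missed the threshold without either PA2 library (adjusted p = 0.0583 without replicate 1 and 0.0591 without replicate 2). The Gli2 loss (0.0860 and 0.0800) and the Ptch1 loss (0.0701 and 0.0650) missed it without knockout replicate 1 or 2. Of the 46 Shh pairs 0 passed, and the groups of 2 did not overlap in 18 of them, beside 35.8% of all pairs.

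The number of contacts per bait was compared on the log2 scale after scaling to each library's same-chromosome pairs, for baits with a mean of 5 or more listed fragments, which Smo and Gli1 did not reach. No bait of the other 5 genes passed in any comparison, where 1.8% of 10308 baits passed between Hoxa2-expressing and Hox-negative (1.12% higher, 0.689% lower) and 14.8% between pinna and E10.5 (5.84% higher, 8.92% lower). The share was 0.868% of 10021 baits between knockout and PA2 (0.0299% higher, 0.838% lower). It was 0% between FNP and the other processes by limma, with 580 baits at an unadjusted p under 0.05. The nearest was Gli2, with a log2 difference of 1.10 (SE 0.314, limma adjusted p = 0.0721) in Hoxa2-expressing over Hox-negative libraries. It passed without Mx replicate 1 (adjusted p = 0.0441) or PA2 replicate 1 (adjusted p = 0.0380), where 78 and 544 of all 10308 baits did. In pinna against E10.5 the log2 difference was -0.76 (SE 0.287, adjusted p = 0.0790) for Ptch1, -0.42 (SE 0.192, adjusted p = 0.153) for Shh and 0.78 (SE 0.377, adjusted p = 0.177) for Gli2, which turned to -0.092 within the PA2 lineage. Counting only scores of 10 or more, Shh passed (-0.79, adjusted p = 0.0407), as did 284 of all 1183 baits tested there (89 higher, 195 lower). Shh also passed without E12.5 pinna replicate 1 (adjusted p = 0.0415), and Ptch1 passed without that library (adjusted p = 0.0425) or Md replicate 1 (adjusted p = 0.0458). Of all 10308 baits, 1513 passed without that pinna library and 1487 without Md replicate 1. In the other direction, Shh dropped to -0.18 (adjusted p = 0.554) without E14.5 pinna replicate 1 and Ptch1 to -0.40 (adjusted p = 0.327) without E12.5 pinna replicate 2.

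Among 18 other genes of the pathway, 17 had a bait, Evc and Evc2 sharing 1, which gave 16 baits. Cdon and Gas1, co-receptors that help Ptch1 bind the ligand, had more contacts than any of the 7, with medians of 68.5 and 71.0 fragments, and the third co-receptor Boc had 25. In pinna against E10.5, 5 of their 442 tested pairs were higher and 0 lower, a share of 1.13% beside 0.96% of all pairs. Of these, 4 belonged to Cdon, 67.6 to 133 kb from its bait, such as chr9:35290715-35292102, which scored 7.53 to 13.3 in wild-type E10.5 libraries and 17.9 to 28.1 in pinna (asinh difference 0.838, SE 0.175, adjusted p = 0.0230). Of the 100 Cdon pairs tested, which share 1 bait, the groups did not overlap in 19, all higher in pinna. Over all 286137 pairs this held for 3054 higher and 2186 lower. The fifth pair past the threshold joined Hhat, the acyltransferase that lipidates the ligand, to a fragment 131 kb away. It was listed in the 4 pinna libraries only, at 5.33 to 6.27, and entered the fit only through them, so that it had to differ. In the knockout comparison 7 of their 314 tested pairs passed, a share of 2.23% beside 2.16% of all pairs. The higher one was of Evc and Evc2, listed only in the knockout (5.22 and 6.18) and E14.5 pinna (5.61 and 7.02). It could enter the fit only with the knockout libraries, where it is high, so it had to differ. The 6 lower ones were 3 of Gas1 and 1 each of Boc, Cdon and the ligand gene Ihh. Those 6 scored 5.00 to 15.0 in PA2 and 0 in both knockout libraries. No pair of these pathway genes passed in the other 2 comparisons. By contact number, 2 of the 10 baits tested passed, both in pinna against E10.5, where 14.8% of all baits did. They were Boc (log2 difference 0.71, adjusted p = 0.0458) and Kif7, a ciliary regulator of Gli proteins (-1.53, adjusted p = 0.0252), neither of them within the PA2 lineage (adjusted p = 0.467 and 0.695). Boc lost its call without any of 7 libraries (adjusted p up to 0.118) and Kif7 without E12.5 pinna replicate 1 (0.0503) or E14.5 pinna replicate 2 (0.120).

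The baits whose percentile moved most like that of Shh over the 14 libraries were Mycn (Pearson r = 0.965), Evx2 (0.964) and the shared bait of Zic1 and Zic4 (0.947). For Ptch1 they were the shared bait of Gm15469 and Ucn (0.945), Agfg2 (0.944) and Kdm4b (0.941). These are descriptions over 14 libraries that the baits share, picked as the highest of all TSS baits, and they rest largely on 1 library. Without E14.5 pinna replicate 1, the library farthest from the Shh median, r was 0.601, 0.666 and 0.460 for the 3 baits like Shh. Without E12.5 pinna replicate 2, r was 0.661, 0.760 and 0.628 for those like Ptch1. Leaving these libraries out was chosen after seeing the data.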

How the data were processed

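Promoter capture Hi-C lists of 14 libraries were used. Per the study's methods and the labels, the authors digested with HindIII, captured promoter fragments, sequenced on a NextSeq 500, aligned to GRCm38 (mm10) with HiCUP and called interactions with CHiCAGO in each library. The submitters' processing notes name bcl2fastq 2.17. The deposited values are CHiCAGO scores, pairs at 5 or more only, with no read counts. Members, gene lists and tests were chosen with earlier results of these data known.

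GRCm38 was digested in silico (849940 HindIII fragments), lists were matched to it and TSSs of GENCODE vM21 assigned. The rule leaves Shh without a bait, so the adjoining bait was used, a choice made after seeing the data. Distances are gaps between facing fragment ends. Pair scores (asinh) and contact numbers per bait (log2 of number plus 1, per 100000 same-chromosome pairs) were tested with limma 3.58.1 (R 4.3.3, Python 3.11.15, pandas 2.3.3), adjusted by Benjamini-Hochberg over all pairs or baits, and tested on simulated data. Pairs entered if listed in 2 wild-type libraries (2-group comparisons) or 4 of 14 (others), baits at a mean of 5. The 2-group comparisons count each library as 1 unit, although every condition gave 2. Named were the 3 highest partners of each bait by mean score, tested pairs past the threshold and baits listed in 7 or more libraries, and the 3 baits most like Shh and Ptch1 by Pearson correlation of percentiles. For Hhip 1 of these partners is not reported here. Pathway genes outside the 7 were named where past the threshold, Cdon, Gas1 and Boc also for their number of contacts, chosen after their values were seen. Fragments of the Shh desert and Mnx1 neighbourhood were likewise chosen after seeing the data. Replicates were grouped by the labels; limits of counting precision cannot be given without read counts. Alternatives covered filters, score caps, thresholds, scaling, replicate block and left-out libraries.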

Additional observations from a re-analysis of the deposited data

Results flagged for a closer look

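E14.5 pinna replicate 1 stood apart in the Shh values. Its Shh bait was listed with 15 fragments, below the other pinna libraries (33 to 35) and the other Hoxa2-expressing libraries (31 to 38). The same library had 14 listed fragments in the Shh domain, where the other pinna libraries had 29 to 31, and a mean score of 1.61 over Lmbr1 intron 5, where they had 6.09 to 6.65. These 4 values rest on 1 library and overlapping fragments.

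E12.5 pinna replicate 2 scored 9.04 with the fragment 1011.7 kb from the Shh bait, which the other 3 pinna libraries did not list. With those 3 at 0, any listed score would have been flagged, so this flag adds nothing to the value. The rate given below does not apply to it. PA2 replicate 2 had 42 fragments with the Ptch1 bait, above the other Hoxa2-expressing libraries (7 to 18). Mx replicate 1 had 12 with the Gli2 bait, above the other Hox-negative libraries (3 to 6). Each of these 7 values stood out because its gap to the nearest library was large for the range of its group, a test that by chance marks about 1 in 20 groups, and 49 groups were tested.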

How the results depend on the processing

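Scores exist only for listed pairs, sequencing depth is unknown, and each condition has 2 libraries. The Shh percentile lead over the mean of Ptch1, Gli1, Gli2 and Gli3 stayed positive under summed scores, scores of 10 or more and a limit of 2 Mb, and at 27.4 to 29.5 with any 1 library left out.

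Pairs passing between Hoxa2-expressing and Hox-negative libraries, 58, became 14 when listed in at least 4 libraries, 14 with scores capped at 20, 306 on raw scores, 162 with equal numbers of top pairs, 6 without both merged libraries, and 16 to 138 with 1 library left out. Between pinna and E10.5 the 2748 became 4745 in at least 4 libraries, 1109 with scores under 10 set to 0, and 2259 to 3722 with 1 left out. For the knockout the 3493 became 12861 in at least 2 libraries, 865 with scores under 10 set to 0, 28517 with only the groups compared, and 3446 to 4442. For FNP the 323 became 6584 in at least 2 libraries, 103 capped, 175 with scores under 10 set to 0, 98 with the replicate block, 1364 with only the groups compared, and 152 to 1060.

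Baits passing moved at scores of 10 or more from 186 to 20 (Hoxa2-expressing), 1521 to 284 (pinna) and 87 to 29 (knockout), and within the PA2 lineage from 1521 to 101. At scores of 10 or more, only 1183 baits were tested for Hoxa2-expressing and for pinna, and 1090 for the knockout. With 1 library left out the baits passing were 22 to 544, 982 to 1513, 24 to 68, and 0 to 1 for FNP (0 otherwise). The Gli2 difference between pinna and E10.5 turned to -0.092 within the PA2 lineage. Leaving out 1 library put the intron 5 differences at -0.78 to 0.40 (Hoxa2-expressing) and -0.68 to 1.00 (pinna), and the domain differences at -2.93 to 0.47 and -3.67 to 2.00. The cause was not tested.

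Replicate numbers are shared between conditions, but same-numbered deviations did not correlate over 0.1 in any of 21 pairs of conditions (r 0.000862 to 0.0590). With replicate number as a block, the pair counts were 82, 2735, 3305 and 98, the bait counts 201, 1662, 117 and 0, and the intron 5 differences stayed at -0.31 (p = 0.715) and -0.20 (p = 0.827) by exact permutation. No call of the 7 genes' pairs was lost with the block.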
